A study of Mus musculus with 24 samples.

Results

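The genes described here were those most strongly reduced after 2 h of LPS in control mouse macrophages. A gene was taken if its mean log2 level in the 3 LysM-Cre libraries at 2 h lay at least 1.5 below that in the 3 LysM-Cre libraries before LPS, and if the mean before LPS was at least 6. Fos itself and genes whose symbols start with Klf, Slc, Zfp, Arrdc or Txnip were left out, which removed 5 genes (Fos, Zfp395, Slc26a11, Zfp36l2 and Arrdc3). This left 75 of the 24273 genes in the table, and all 75 were among the 13901 genes tested, having passed the filter on low values through their level before LPS. The fall in LysM-Cre cells and the level before LPS in LysM-Cre cells therefore chose the genes and are given as a description. The questions were how the fall developed over time and whether it occurred in libraries labelled FosKO, which took no part in the choice.

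The cells were bone marrow-derived macrophages (BMDMs), grown for 7 days from C57BL/6 bone marrow in L-cell conditioned medium and kept overnight in 1% serum before use. Both genotypes carried LysM-Cre, a Cre recombinase expressed from the lysozyme locus of myeloid cells. Control cells were LysM-Cre without LPS or with 100 ng/ml LPS for 0.5, 1 or 2 h, and FosKO cells were LysM-Cre Fos fl/fl under the same 4 conditions, with 3 libraries in each of the 8 groups and 24 in all. In the study's own text the controls also carry a floxed Fos allele, and expression values cannot settle which description holds. The labels do not say whether libraries of a group came from separate mice, and the study's methods call the libraries biological replicates without naming their source, so p-values measure the spread between these libraries. Values are normalized log2 levels, on which a difference of -1 is a halving.

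LPS, a component of Gram-negative bacterial walls, signals through TLR4 and changes macrophage transcription within minutes. Alongside the induced cytokines and transcription factors, many genes of the resting macrophage are switched down, among them receptors that sense lipids and chemokines, regulators of the cytoskeleton, and genes of cell growth and division. How quickly an mRNA can fall is limited by its own half-life, and many short-lived mRNAs encode transcription factors. FOS pairs with JUN proteins in the AP-1 transcription factor, whose members are among the immediate early genes of LPS-treated macrophages.

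Facts on the libraries bear on what follows. Fos mRNA did not verify the FosKO label, because all 12 libraries carrying that label held it between 12.41 and 12.93, whereas LysM-Cre libraries held 11.07 to 11.17 before LPS, peaked at 13.43 to 13.57 after 0.5 h, and had 11.02 to 11.34 after 1 h and 9.42 to 9.61 after 2 h. Since 1 value per gene does not separate the floxed part of Fos from the rest, each genotype direction below rests on the labels, and FosKO means libraries so labelled. Ribosomal 18S RNA (Rn18s-rs5) split the libraries, with 18.57 to 19.39 in 19 of them and at least 1.5 less in 5, which were from 0.5 h (replicate 3 of the controls, replicate 1 of FosKO) and from 1 h (replicates 2 and 3 of the controls, replicate 1 of FosKO). Summed on the linear scale, macrophage markers lay between 235900 and 313300 and were highest in FosKO at 2 h, from 309100 to 313300. Of 6 T cell markers, Cd3g, Cd3e, Cd3d, Cd8a and Trac were at the floor of the table, and Cd79a, Pax5 and Ms4a1 were at the floor among B cell markers. Sums of some other marker lists moved with genotype or time. The sum of 4 endothelial markers, with Tek at the floor, ran from 331.2 to 430.9 in LysM-Cre and from 504.3 to 1039 in FosKO, and that of the T cell list from 193.9 to 240.3 and from 257.8 to 349.5. Neutrophil markers, with Elane, Ly6g, Cxcr2 and Camp at the floor, were lower in FosKO at every time, for example 133.7 to 174.3 in LysM-Cre and 79.55 to 90.76 in FosKO at 2 h. Dendritic cell markers, with Cd209a, Flt3 and Siglech at the floor, summed to 34.69 to 37.01 in LysM-Cre and 34.35 to 43.33 in FosKO before LPS, and were higher at 2 h, at 114.7 to 126.7 and 89.78 to 92.83. Fibroblast markers, with Dcn and Pdgfra at the floor, were also higher at 2 h, at 57.62 to 67.49 in LysM-Cre and 60.65 to 70.3 in FosKO, against 27.8 to 33.76 and 21.8 to 27.26 before LPS. The part of other cell types in the results was not tested. In bulk RNA, fewer cells of a type and less RNA per cell cannot be told apart.

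Sequences near the start sites of these genes are shown first, because the study concerns the AP-1 protein FOS and because members that fall together might share letters there. RefSeq promoter windows (build GRCm38.p6, 250 bases before to 50 after a start) were matched by symbol for 55 of the 75 genes, which gave 82 windows. The AP-1 motif TGANTCA, which is its own reverse complement, was in 6.1% of these windows and in 5.33% of the 12169 windows of all tested genes. The 5 windows that held it are shown as 30 bases each, 5′ to 3′ on the strand of the gene, with the motif in capitals, at chr16:16560281-16560310 (minus) for Fgd4, chr5:139389892-139389921 (plus) for Gpr146, chr7:83735539-83735568 (minus) for Il16, chr11:60913805-60913834 (minus) for Natd1 and chr8:119437039-119437068 (plus) for Osgin1.
Fgd4: cccaagaagccTGAGTCAcacacttctacc
Gpr146: ctgtgagtaatTGACTCAaggcaaacaagt
Il16: gagctggcatgTGACTCAgggctggcctca
Natd1: cgcagcgcacgTGACTCAcagctgatttcc
Osgin1: ggggcccctgcTGACTCAcgcttatgaaag
These genes did not move one way between the genotypes at 0.5 h of LPS. The difference, FosKO minus LysM-Cre, was 0.16 for Fgd4 and 0.26 for Natd1, -0.35 for Gpr146 and -0.26 for Osgin1, and 0.02 for Il16. Gpr146, Fgd4 and Natd1 passed the test described below (limma adjusted p = 0.000225, 0.0011 and 0.00131), and Osgin1 and Il16 did not (0.0514 and 0.894).

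A promoter window of Cnr2, the gene with the largest fall apart from the variable locus Gm42674, and one of Dtl, a gene of DNA replication control, are shown whole, with motifs in capitals. Cnr2, which encodes the cannabinoid receptor CB2, lies at chr4:135895394-135920207 (plus strand, ENSMUSG00000062585), and has 2 RefSeq windows. The window at chr4:135894939-135895238, beside the annotated start of the gene, held none of the motifs searched and is not shown. The window shown, at chr4:135911430-135911729, surrounds another RefSeq start inside the locus and holds ATTGG, the reverse complement of the CCAAT box, 46 bases before that start.
Cnr2: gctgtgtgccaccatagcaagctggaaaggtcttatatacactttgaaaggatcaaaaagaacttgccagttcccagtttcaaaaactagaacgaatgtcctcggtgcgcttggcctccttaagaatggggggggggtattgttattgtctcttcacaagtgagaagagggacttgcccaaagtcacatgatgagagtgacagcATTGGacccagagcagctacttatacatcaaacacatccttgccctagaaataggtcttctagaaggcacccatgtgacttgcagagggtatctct
Dtl: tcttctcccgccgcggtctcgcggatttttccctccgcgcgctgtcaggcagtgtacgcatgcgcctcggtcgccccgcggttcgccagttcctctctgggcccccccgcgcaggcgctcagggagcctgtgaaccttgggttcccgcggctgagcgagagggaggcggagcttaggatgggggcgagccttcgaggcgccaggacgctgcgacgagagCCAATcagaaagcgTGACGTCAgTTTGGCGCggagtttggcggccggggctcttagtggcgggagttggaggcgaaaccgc
The Dtl window, at chr1:191575495-191575794 on the minus strand, holds CCAAT, the cyclic AMP response element TGACGTCA and the E2F motif TTTGGCGC beside each other. Searched on both strands, CCAAT was in 45.1% of the windows of these genes and in 37.8% of all windows, TGACGTCA in 2.44% and 3.06%, and E2F motifs (TTTCGCGC, TTTGGCGC or GGCGGGAA) in 4.88% and 5.37%. The E-box CACGTG was in 14.6% and 9.92%. These are matches of letters and are not binding sites.

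As transcripts, the genes had longer 3′ UTRs and fewer exons than tested genes at large. In the 67 members with a coding transcript in the annotation, the median 3′ UTR was 1747 bases and the median number of exons 5, against 999 bases and 9 exons over 11875 tested genes. The coding part had a median of 1227 against 1368 bases. The pentamer ATTTA, the core of AU-rich elements of short-lived mRNAs, was in the 3′ UTR of 83.6% of the members and 66.8% of all, but per kilobase of UTR its median was 1.18 in members and 1.36 in all. The stricter element TATTTAT was in 28.4% and 28.1%. Of the 75 genes, 68 were annotated as protein coding, and 12 overlapped another gene on the same strand and 26 on the opposite strand.

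LPS reduced nearly all of these genes in FosKO as well. At 2 h, 71 of the 75 were lower than before LPS in FosKO and none was higher, where 29.5% of all tested genes were lower and 32.6% higher (limma, Benjamini-Hochberg adjusted p under 0.05 over all tested genes). At least 2-fold lower were 67, against 2.73% of all. The median change was -1.57 in FosKO and -1.73 in LysM-Cre, where the rule had fixed it at -1.5 or below. Among the 71 genes, changes in FosKO ran from -2.96 for Cnr2 to -0.86 for Jun, each with an adjusted p of at most 4.98e-05, and the median level left at 2 h in FosKO was 33.3% of that before LPS.

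**Figure D1:**
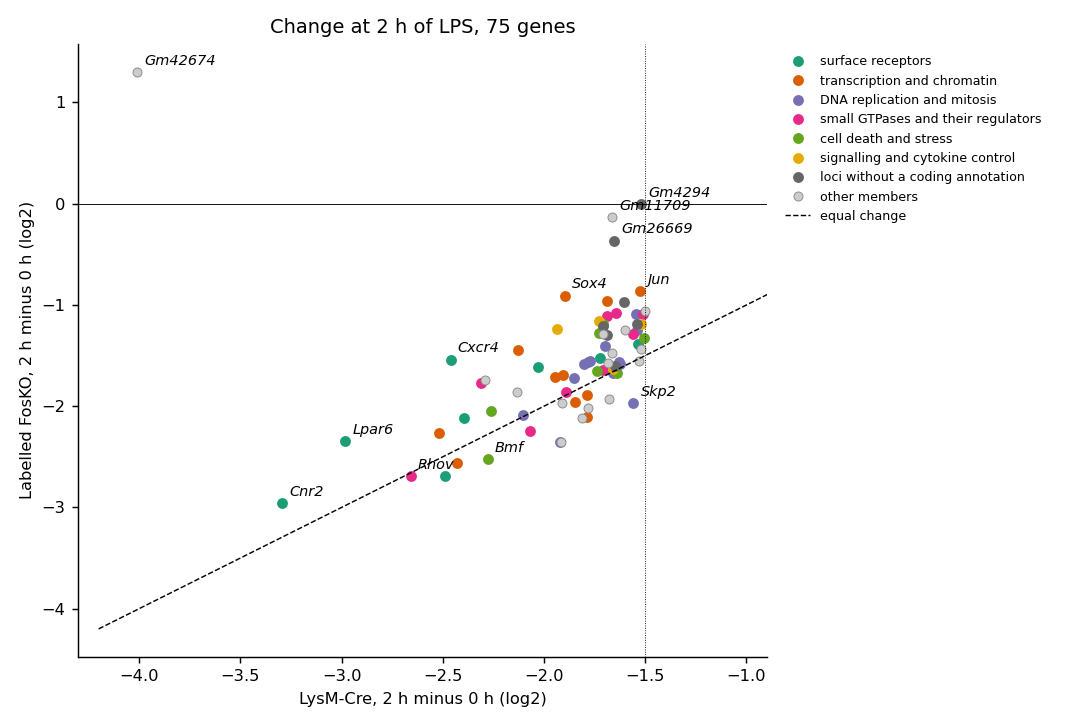
Change from 0 h to 2 h of LPS (log2) in LysM-Cre on the x axis and in libraries labelled FosKO on the y axis, 1 point per gene for 75 genes, coloured by the role of the gene. The dashed line marks equal change and the dotted line the threshold of -1.5 that chose the genes, and 71 points lie at or below -0.86 on the y axis while Gm42674, Gm4294, Gm11709 and Gm26669 lie higher.

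The fall grew with time. In FosKO, 10 of the 75 were lower at 0.5 h, against 1.47% of all tested genes, and 56 were lower at 1 h, against 15%. The median change was -0.04 at 0.5 h and -0.43 at 1 h, and all tested genes had a median of 0.00 at both times. Jun and Zc3h12d were higher at 0.5 h (4.45% of all tested genes) and Jun alone was higher at 1 h (17.6%). In LysM-Cre, whose 0.5 and 1 h libraries took no part in the choice, 65 of 75 were lower at 1 h than at 0.5 h, against 12.8% of all, and none was higher (14% of all). Relative to 0 h, which did take part, the LysM-Cre medians were -0.06 at 0.5 h and -0.65 at 1 h. Steps within FosKO were compared after the data had been seen. From 0.5 h to 1 h 50 genes were lower (13% of all) and none was higher (14.5%), and from 1 h to 2 h 71 were lower (23.6%) with a median of -1.11 and Gm4294 alone was higher (27.2%). Without the 5 libraries low in 18S RNA, the genes lower in FosKO numbered 11, 58 and 72 at the successive times and those higher 3, 3 and 1, and in LysM-Cre 49 were lower at 1 h than at 0.5 h.

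Of the 75 genes, 8 were counted as surface receptors. Gm11709, which the annotation names Cd300ld2, was not counted with Cd300lb and the others. It is among the genes described below that did not pass at 2 h in FosKO. All 8 counted receptors were lower in FosKO at both 1 h and 2 h (15% and 29.5% of all tested genes), with medians of -0.84 and -1.86. All 8 were also lower in LysM-Cre at 1 h than at 0.5 h (12.8% of all tested genes). Of all 75 genes, 74.7%, 94.7% and 86.7% were lower in these comparisons. In LysM-Cre the unstimulated libraries had Cnr2 at 9.39, 9.42 and 9.35, followed by 8.92, 8.80 and 8.90 after 0.5 h, by 7.76, 7.76 and 7.90 after 1 h, and by 6.27, 5.94 and 6.07 after 2 h. In FosKO it was 9.18, 9.07 and 8.91, then 8.67, 8.58 and 8.47, then 7.81, 7.79 and 7.81, and at 2 h 6.09, 6.03 and 6.16. The libraries of successive times did not overlap in either genotype, and each time was lower than the one before. In FosKO the change was -0.48 at 0.5 h (SE 0.0759, limma adjusted p = 0.00022), the mean went from 9.05 before LPS to 7.81 at 1 h (2.67e-11), and the change at 2 h was -2.96 (5.64e-18), which left 12.8% of the level before LPS and compared with 10.2% in LysM-Cre. Between the genotypes, Cnr2 was lower in FosKO at 0.5 h by a difference of -0.30 (adjusted p = 0.00329), and at 1 h the difference was -0.00 (0.987, SE 0.0759). Its libraries of the genotypes did not overlap at 0.5 h and overlapped at 1 h.

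Lpar6, a receptor for lysophosphatidic acid, had the next largest fall of the receptors in LysM-Cre, and in FosKO it came after Cnr2 and Cd300lb. It was 9.68, 9.71 and 9.81 in LysM-Cre before LPS and 6.77, 6.67 and 6.81 at 2 h, and 9.33, 9.23 and 9.23 in FosKO before LPS and 6.83, 6.91 and 7.01 at 2 h. The FosKO libraries all started below LysM-Cre and all ended above it. The change in FosKO was -2.34 (SE 0.0709, limma adjusted p = 7.92e-17). At 0.5 h of LPS Lpar6 was lower in FosKO by a difference of -0.55 (2.67e-06), and at 1 h the difference was -0.26 (0.007), a call lost when replicate 3 at 1 h was left out of LysM-Cre (0.0516) or of FosKO (0.0521), with only the groups compared (0.0526) and in the high 18S libraries alone (0.129). Lpar5, a related receptor, changed by -1.52 at 2 h in FosKO (2.99e-11) and was lower than LysM-Cre at 0.5 h, with a difference of -0.37 (0.00574).

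Cxcr4, the receptor for the chemokine CXCL12, followed another course. Before LPS it was 9.37, 9.49 and 9.39 in LysM-Cre and 9.23, 9.27 and 9.50 in FosKO, so that the genotypes overlapped. At 2 h it was 6.88, 6.89 and 7.10 in LysM-Cre and 7.78, 7.69 and 7.92 in FosKO, and every FosKO library was above every LysM-Cre library. The change in FosKO was -1.54 (SE 0.0786, limma adjusted p = 4.32e-13) against -2.46 in LysM-Cre, which left 34.4% and 18.1% of the level before LPS. Since the LysM-Cre values at 2 h took part in the choice of genes, this gap is given without a test. At 0.5 and 1 h, where a test was open, Cxcr4 did not pass it between the genotypes (differences of -0.10 and 0.17, adjusted p = 0.345 and 0.11).

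Differences between the genotypes at 0.5 h were called for 6 of the 8 receptors, all lower in FosKO, where 19.7% of all tested genes were lower. At 1 h 3 were lower (15.9% of all tested) with a median of -0.17, and the calls of Lpar6, given above, and of Gpr146 were lost under some alternatives. All 8 had means below LysM-Cre already before LPS, with a median of -0.32 and one of -0.33 at 0.5 h, the former a description because those LysM-Cre libraries chose the genes. A choice by the LysM-Cre level before LPS favours genes lower in FosKO, so the calls at 0.5 h are not independent of it. Gpr146, an orphan G protein-coupled receptor, was lower in FosKO at 0.5 h by a difference of -0.35 (limma adjusted p = 0.000225), and changed by -2.11 at 2 h. Its difference at 1 h was -0.19 (0.0316), with adjusted p up to 0.102 when a library of that time was left out and 0.243 in the high 18S libraries alone. Cd300lb, an immunoglobulin-type receptor of myeloid cells, had a difference of -0.15 at 0.5 h (0.00248) and changed by -2.69 in FosKO (3e-22). Thbd, which encodes the thrombin cofactor thrombomodulin, changed by -1.38 in FosKO (1.5e-11), and its genotype differences of -0.05 at 0.5 h and 0.06 at 1 h did not pass the test (0.709 and 0.655).

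**Figure D2:**
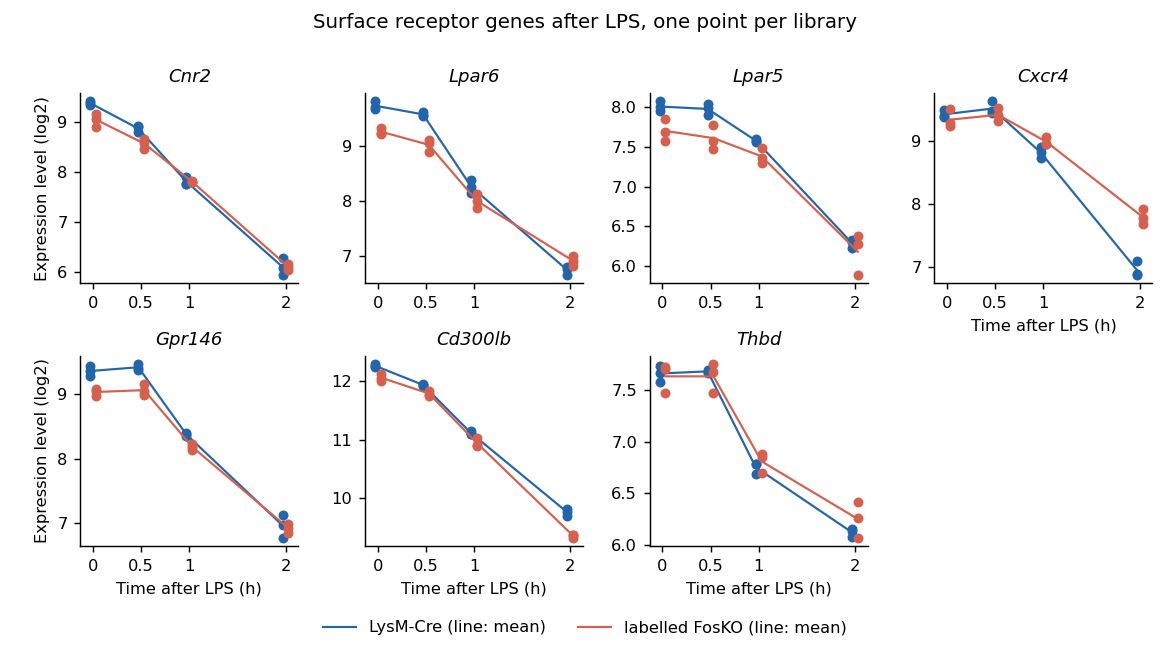
Expression level (log2) of 7 surface receptor genes on the y axis against time after LPS in hours on the x axis, with 1 point per library (3 per group) and lines through the group means, LysM-Cre in blue and libraries labelled FosKO in red. Cnr2 declines at each time, most others decline after 0.5 h, and Cxcr4 ends higher in FosKO (7.69 to 7.92) than in LysM-Cre (6.88 to 7.10).

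Among regulators of transcription and chromatin, all 11 were lower in FosKO at 2 h (29.5% of all tested genes), with a median change of -1.71. At 1 h 8 were lower (15% of all tested genes). Irf2bp2, a corepressor that binds IRF2, changed by -2.56 in FosKO and -2.43 in LysM-Cre, and Lyl1, a helix-loop-helix factor of blood cells, by -2.27 and -2.52. Foxo3, a forkhead factor of quiescence, changed by -1.96 and -1.84, Mnt, a repressor that pairs with MAX, by -2.10 and -1.79, and the clock gene Per1 by -1.89 and -1.79. For Foxo3 the 3 FosKO libraries were 10.95, 10.90 and 11.04 before LPS and 8.96, 9.14 and 8.92 at 2 h, and Per1 went from 8.72, 8.59 and 8.78 to 6.83, 6.65 and 6.94. Most of that fall came after 1 h, when Foxo3 had covered 17.8% and Per1 13% of its change at 2 h in FosKO. Cbx8, a Polycomb chromodomain protein, was earlier and had covered 63.5%.

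Jun, the partner of FOS in AP-1, rose before it fell. LysM-Cre libraries had 11.44, 11.51 and 11.52 before LPS, rose to 12.58, 12.63 and 12.63 after 0.5 h, returned to 11.35, 11.37 and 11.45 after 1 h and reached 9.87, 9.98 and 10.04 after 2 h. In FosKO it was 11.62, 11.63 and 11.62, then 12.79, 12.80 and 12.82, then 11.94, 12.05 and 11.90, and at 2 h 10.75, 10.73 and 10.79. Every FosKO library was above every LysM-Cre library of the same time at all 4 times. In FosKO the change from 0 h was 1.18 at 0.5 h (limma adjusted p = 5.05e-15), 0.34 at 1 h (7.72e-07) and -0.86 at 2 h (7.95e-14), the smallest change at 2 h among the 71 genes called. The difference between the genotypes was 0.19 at 0.5 h (SE 0.0398, adjusted p = 0.000607) and 0.57 at 1 h (1.08e-09), and with quantile normalisation the difference at 0.5 h was 0.09 (0.0975).

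The step from 0.5 h to 1 h, which uses no library that chose the genes, could be compared between the genotypes in a test added after the data were seen. It differed for 4 of the 75 genes, 3 of which are described here, each with the smaller decline in FosKO, where 0.496% of all tested genes differed in that direction. None differed the other way (0.561% of all). The genes were chosen for a fall in LysM-Cre, so a larger decline there is favoured by the choice even in other libraries. The median difference in the step was 0.118 over the 75 genes and 0.00 over all tested genes. The shared direction is therefore no separate support. For Jun the step was -1.22 in LysM-Cre and -0.84 in FosKO, a difference of 0.38 (SE 0.0563, limma adjusted p = 0.000575). Dusp6, a phosphatase that inactivates ERK1/2, stepped by -1.11 and -0.67 (difference 0.44, SE 0.0911, adjusted p = 0.0159). Arl4c, a small GTPase of the Arf family, stepped by -0.26 and -0.04 (0.22, SE 0.0457, 0.0174).

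The library values of these genes show where the gap opened. Dusp6 overlapped at 0.5 h (9.67, 9.52 and 9.65 in LysM-Cre against 9.68, 9.58 and 9.56 in FosKO) and did not at 1 h (8.48, 8.39 and 8.65 against 8.96, 8.95 and 8.90). At 2 h its libraries were apart as well, at 7.77, 7.84 and 7.79 against 8.40, 8.38 and 8.41. Arl4c took another course, since it was lower in FosKO at 0.5 h (difference -0.38, limma adjusted p = 1.58e-08) and had a slightly higher mean than LysM-Cre at 2 h (10.22 against 10.14). Using only the 19 libraries high in 18S RNA, Jun alone kept its call for the step (adjusted p = 0.0334, the highest of its alternatives, which began at 9.24e-05), and Dusp6 and Arl4c had differences of 0.47 and 0.25 (0.107 and 0.219). Without LysM-Cre replicate 2 at 1 h, Dusp6 and Arl4c lost the call as well (0.0557 and 0.0528), with only the groups compared Dusp6 did (0.0684), and without FosKO replicate 3 at 1 h Arl4c did (0.0508).

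**Figure D3:**
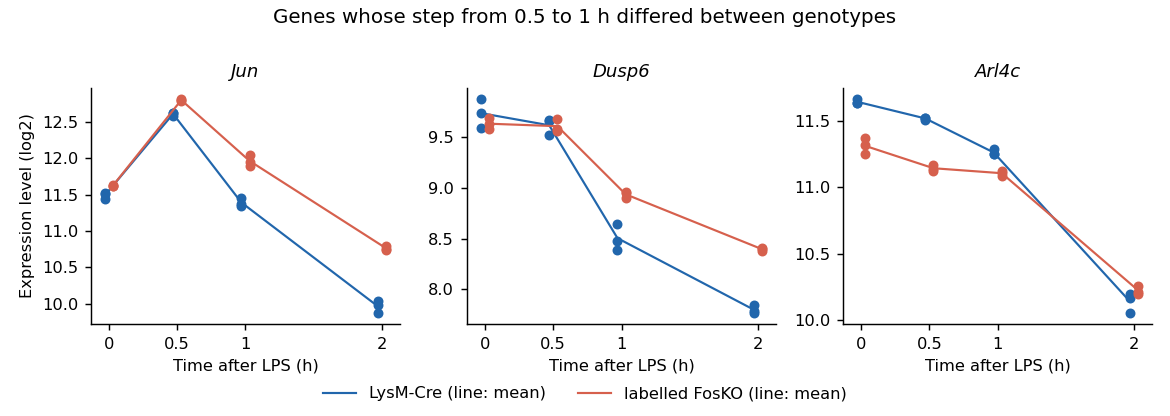
Expression level (log2) of Jun, Dusp6 and Arl4c on the y axis against time after LPS in hours, 1 point per library (3 per group) and lines through the group means, LysM-Cre in blue and libraries labelled FosKO in red. Jun peaks at 0.5 h in both, and at 1 h Jun and Dusp6 are higher in FosKO without overlap.

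Among the 71 genes called at 2 h in FosKO, the smallest falls relative to LysM-Cre belonged to Sox4, Jun and Zbtb16. Over the 71 genes called at 2 h the FosKO change divided by the LysM-Cre change had a median of 0.883 and ran from 0.479 to 1.26, with 16 genes under 0.75 and 18 over 1. Because the LysM-Cre change chose the genes, a ratio under 1 is favoured by the choice and was not tested. Sox4, a high-mobility-group transcription factor, had the lowest ratio but started from another level. It was 6.88, 7.03 and 6.96 in LysM-Cre and 6.19, 5.58 and 5.53 in FosKO before LPS, and 5.02, 5.36 and 4.80 against 4.75, 4.86 and 4.97 at 2 h, so that the genotypes were apart before LPS and overlapped at 2 h. The difference between genotypes was -1.12 at 0.5 h and -0.67 at 1 h (limma adjusted p = 1.09e-05 and 0.00275). Zbtb16, which encodes the zinc finger protein PLZF, showed the same, with differences of -1.20 and -0.70 (3.11e-06 and 0.00158), and level values at 2 h of 4.73, 4.80 and 4.59 in LysM-Cre and 4.62, 4.90 and 4.59 in FosKO. The rule asked for a mean of at least 6 before LPS in LysM-Cre alone, and the FosKO mean of Sox4 was below 6. Lower levels in FosKO were therefore favoured by the choice. At the other end, Skp2, Cdca7, 1700017B05Rik, Mnt and Fam78a had ratios of 1.26, 1.23, 1.23, 1.18 and 1.17. Skp2, a subunit of a ubiquitin ligase that drives entry into S phase, had 7.94, 7.93 and 8.15 before LPS and 6.55, 6.43 and 6.36 at 2 h in LysM-Cre. Its FosKO libraries had 8.17, 8.06 and 7.98 before LPS and 5.94, 6.19 and 6.18 at 2 h, and the genotypes did not overlap at 2 h.

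Genes of DNA replication and mitosis formed the largest group, with 13 members. All 13 were lower in FosKO at 2 h (29.5% of all tested genes), with a median of -1.58. At 1 h 9 were lower (15% of all tested genes and 74.7% of the 75 genes). The call for Esco2 at 1 h was the weakest of the 9 (a change of -0.27, limma adjusted p = 0.0461) and was lost with quantile normalisation (0.166), TMM factors (0.0509), no filter on low values (0.0696) or only the groups compared (0.156), and without any of several single libraries (up to 0.236, without FosKO replicate 3 at 1 h). Most of the 13 were also lower in FosKO than in LysM-Cre. At 0.5 h of LPS 11 of the 13 were lower in FosKO than in LysM-Cre and none was higher, with a median difference of -0.41 and a range from -0.78 to 0.07. Of all 75 genes, 34 (45.3%) were lower and 10 (13.3%) were higher, against 19.7% and 21.2% of all tested genes. With quantile normalisation 36 were lower and 6 higher. In either direction 44 (58.7%) differed, against 40.9%. The rule asked for a high level before LPS in LysM-Cre alone, which favours genes that are lower in FosKO. Before LPS 52 of the 75 had lower means in FosKO, with a median of -0.202. The excess of lower calls is not independent of that choice. At 1 h 7 of the 13 were lower in FosKO. Of all 75 genes, 20 (26.7%) were lower and 14 (18.7%) higher at that time, against 15.9% and 18% of all tested. In either direction 34 (45.3%) differed, against 33.9%. Before LPS 11 of the 13 lay below LysM-Cre, with a median of -0.31, which is a description because those LysM-Cre libraries chose the genes.

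Esco2, an acetyltransferase that establishes sister chromatid cohesion, had the largest such difference. At 0.5 h it was 7.28, 7.08 and 7.14 in LysM-Cre and 6.59, 6.34 and 6.24 in FosKO, and at 1 h 6.95, 6.94 and 7.06 against 6.54, 6.27 and 6.14. Every FosKO library was lower at both times, with differences of -0.78 and -0.67 (SE 0.1, limma adjusted p = 2.77e-06 and 2.47e-05). Within the libraries low in 18S RNA these differences were -0.55 and -0.46 and within the high ones -0.89 and -0.75. Ccsap, a protein of centrioles and the spindle, had differences of -0.76 and -0.49 (6.64e-08 and 2.31e-05). Fbxo5, an inhibitor of the anaphase-promoting complex, had -0.58 and -0.65 (0.00502 and 0.00277), and Ccnf, which encodes cyclin F, -0.45 and -0.46 (0.000115 and 0.000149).

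Some of the other replication genes passed the test at 0.5 h and did not pass it at 1 h. Ticrr, needed to fire origins, had a difference of -0.51 at 0.5 h (limma adjusted p = 0.000959) and -0.27 at 1 h (0.0646). Cdc6, a loader of the replicative helicase, had -0.35 (0.0396) and -0.14 (0.454), and Exo1, an exonuclease of mismatch repair, had -0.48 (0.00178) and -0.16 (0.301). Dtl, whose promoter is shown above and whose product marks CDT1 for degradation, had -0.39 (0.00462) and -0.28 (0.0434). Ska2, a kinetochore protein, had -0.41 (0.0132) and -0.56 (0.00137), Dna2, a nuclease and helicase, -0.22 (0.00877) and -0.18 (0.0327), and Wdr76 -0.31 (0.0086) and -0.18 (0.128). The call for Dna2 at 1 h was lost when replicate 1 or 3 of LysM-Cre (0.131 and 0.0514) or replicate 2 or 3 of FosKO (0.117 and 0.129) was left out at that time and with only the groups compared (0.0701), and at 0.5 h it did not pass when LysM-Cre replicate 2 of that time was left out (0.0527). Skp2 and Cdca7 were the 2 members that did not pass at 0.5 h, at 0.07 (0.545) and 0.04 (0.837). E2f2, a transcription factor of replication genes counted with the regulators above, had -0.28 at 0.5 h (0.0367) and -0.22 at 1 h (0.109). Several of these differences were not alike in the libraries high and low in 18S RNA. At 0.5 h, with 2 high libraries and 1 low library per genotype, the 11 members that passed were lower in FosKO within both sets, but Exo1 had -0.62 in the high and -0.20 in the low set and Dna2 -0.29 and -0.08. At 1 h the high set held 2 FosKO libraries and 1 of LysM-Cre and the low set the reverse, and Dtl had -0.52 in the high and -0.01 in the low set, Dna2 -0.31 and -0.04, and Ticrr -0.48 and -0.07. The sign turned in the low set at 1 h for Cdc6 (-0.35 and 0.14), Exo1 (-0.44 and 0.09), Skp2 (-0.08 and 0.19) and E2f2 (-0.51 and 0.12).

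**Figure D4:**
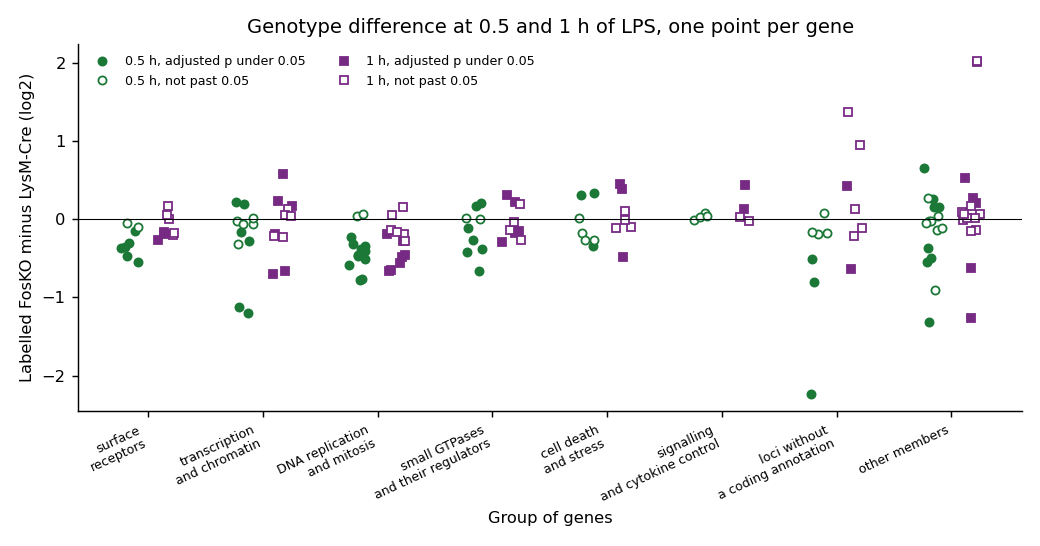
Difference in level, libraries labelled FosKO minus LysM-Cre (log2), on the y axis at 0.5 h (green circles) and 1 h (purple squares) of LPS, 1 point per gene and genes grouped by role on the x axis, with filled symbols for adjusted p under 0.05. In DNA replication and mitosis, 11 of 13 genes are filled and below 0 at 0.5 h, and the signalling genes have none filled at that time.

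Small GTPases and their regulators, 9 genes, were all lower in FosKO at 2 h (29.5% of all tested genes), with a median of -1.64. All 9 were lower in LysM-Cre at 1 h than at 0.5 h (12.8% of all tested genes). Rhov, an atypical small GTPase, had the largest share of its change by 1 h. It was 7.60, 7.77 and 7.60 in LysM-Cre and 7.68, 7.51 and 7.52 in FosKO before LPS, and 5.98 to 6.00 in LysM-Cre against 5.96, 5.66 and 5.92 at 1 h, when it had covered 64% of its change at 2 h in FosKO. By 2 h it was 4.97 to 5.03 in LysM-Cre and 4.74, 5.13 and 4.77 in FosKO, and the genotypes overlapped at both ends. Fgd4, an exchange factor for CDC42, was the opposite case, with 4.95% covered at 1 h, when its change of -0.06 did not pass the test (limma adjusted p = 0.273), and -1.11 at 2 h (2.62e-16). Plekhg3, a guanine nucleotide exchange factor, had 6.19% covered at 1 h. Sh2d3c, Tbc1d2, Rab3il1 and Arhgef39 changed by -2.25, -1.64, -1.29 and -1.08 at 2 h in FosKO. Arhgap25, a Rac-directed GTPase activating protein, changed by -1.78 in FosKO and by -2.31 in LysM-Cre.

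Genes of cell death and stress, 7 in number, were all lower in FosKO at 2 h (29.5% of all tested genes), with a median of -1.66. Bmf encodes a BH3-only protein that promotes apoptosis. Its FosKO libraries had 7.17, 7.15 and 7.27 before LPS and 7.30, 7.17 and 7.12 after 0.5 h, then dropped to 5.46, 5.49 and 5.55 after 1 h and 4.64, 4.77 and 4.61 after 2 h. The libraries at 0.5 h overlapped those before LPS, and those at 1 h did not. In LysM-Cre it was 7.61, 7.67 and 7.68 before LPS and 6.07, 6.07 and 5.82 at 1 h. It was lower in FosKO at 1 h by a difference of -0.48 (limma adjusted p = 0.0017). Trp53inp1, a p53-induced stress protein, went the other way, with 10.11, 10.08 and 10.07 in LysM-Cre and 10.39, 10.42 and 10.46 in FosKO at 0.5 h, and it was higher in FosKO by 0.34 at 0.5 h (5.38e-06) and by 0.46 at 1 h (1.75e-07). Rnf144b, a ubiquitin ligase, was also higher, by 0.31 and 0.39 (0.0058 and 0.00124, or 0.0515 and 0.079 in the high 18S libraries alone). Sesn1, a sestrin that restrains mTORC1, Fbxo32, the ubiquitin ligase atrogin-1, Stk17b, a serine/threonine kinase, and Osgin1 changed by -1.67, -1.66, -1.33 and -1.19 at 2 h in FosKO.

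The 4 signalling and cytokine genes were all lower in FosKO at 1 h and 2 h (15% and 29.5% of all tested genes). Their median at 2 h was -1.21 in FosKO and -1.69 in LysM-Cre. Besides Dusp6, Tifab changed by -1.16 in FosKO and -1.73 in LysM-Cre, Zc3h12d, a ribonuclease of the regnase family, by -1.18 and -1.52, and the cytokine gene Il16 by -1.63 and -1.66. None of the 4 passed the genotype test at 0.5 h, and at 1 h Dusp6 (0.43, limma adjusted p = 2.26e-05) and Zc3h12d (0.13, 0.00278) were higher in FosKO.

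Among the 16 members outside these groups, and apart from Gm42674 and Gm11709 described below, Fam83f and Tmem86a had the largest genotype differences at 0.5 h. Fam83f was 8.06, 7.93 and 7.99 in LysM-Cre and 6.65, 6.51 and 6.88 in FosKO at 0.5 h, and 7.58, 7.57 and 7.62 against 6.39, 6.34 and 6.24 at 1 h. The libraries of the genotypes lay far apart at both times, and the differences were -1.31 and -1.27 (SE 0.11, limma adjusted p = 1.15e-08 and 2.39e-08). Its change at 2 h in FosKO was -1.29 and that in LysM-Cre -1.71. Tmem86a was higher in FosKO, by 0.66 at 0.5 h and 0.53 at 1 h (5.59e-07 and 1.28e-05), and Natd1 by 0.26 and 0.21 (0.00131 and 0.00973, the latter 0.067 without FosKO replicate 2 at 1 h and 0.259 in the high 18S libraries alone). Dnajc28, AI467606, Lhfpl2 and Ppp1r3b were lower in FosKO as early as 0.5 h (changes of -0.65, -0.41, -0.22 and -0.23), and with only the groups compared Lhfpl2 lost the call (0.131). Ppp1r3b, a subunit that directs protein phosphatase 1 to glycogen, was the weakest of these calls (adjusted p = 0.0379) and missed the threshold when any of the 6 FosKO libraries compared was left out (0.0816, 0.0662 and 0.0956 for replicates 1 to 3 at 0 h and 0.0999, 0.0688 and 0.0933 for those at 0.5 h). Engase went from a mean of 7.12 to 5.86 at 2 h in FosKO. Fam214a, Neurl1b, Fam78a, 1700017B05Rik, Kctd7 and Fam110b changed by -1.74, -1.47, -2.11, -2.35, -1.44 and -1.06 at 2 h in FosKO.

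The genes differed in timing. Over the 71 genes, the median share of the change at 2 h that had been covered at 1 h was 26.5% in FosKO and 31.3% in LysM-Cre, and 14 genes in each had covered at least 50%. The largest shares in FosKO were those of Fbxo5, Bmf, Rhov, Neurl1b and Cbx8 (67.9%, 67%, 64%, 63.7% and 63.5%). The smallest were those of Jun, Fam110b, Fam214a, Zbtb16 and Dna2 (-39.3%, -13%, -12.7%, -6.85% and -3.62%), where a share below 0 means that the level at 1 h was above that at 0 h. By group, the median share in FosKO was 40.8% for surface receptors and 41.4% for the signalling genes, 25.8% for DNA replication and mitosis and 18.4% for transcription and chromatin. In LysM-Cre, whose 2 h and 0 h libraries chose the genes, the medians of these groups were 43.5%, 37.1%, 27.2% and 24.1% in the same order. Cell death and stress had 23.3% in FosKO and 38.0% in LysM-Cre, and small GTPases and their regulators 18.9% and 25.3%. For loci without a coding annotation the median was 31.5% in FosKO, over the 5 loci called at 2 h. In LysM-Cre it was 62.0% over all 7 loci, so these medians cover different genes. These gaps were not tested.

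The course of Cnr2 over the 8 group means was most like that of Cd300lb, Il16, Ppp1r3b, Engase and Lpar6 among the members (Pearson r = 0.993, 0.991, 0.990, 0.989 and 0.987). Among tested genes outside the rule it was most like that of Acad12, 1110012L19Rik, Paqr7, Dtd2 and Trim65 (0.997, 0.997, 0.995, 0.995 and 0.995), whose changes in LysM-Cre at 2 h lay between -0.49 and -1.41. These are likenesses of shape across 8 means from the same libraries.

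At the threshold the choice was close. The member nearest to it was Fam110b, followed by Stk17b, Arl4c, Gm4294 and Kctd7 with LysM-Cre changes of -1.51, -1.51, -1.52 and -1.52. Just outside were A530017D24Rik, Fam212b, Tfap4 and the sphingosine-1-phosphate receptor S1pr1, with -1.49, -1.49, -1.48 and -1.48. The same rule applied to FosKO libraries chose 63 genes, of which 42 were shared, or 56% of the LysM-Cre list and 66.7% of the FosKO list.

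Genes of related lists, some of which hold members, changed in both directions. On a list of 61 tested G protein-coupled receptors of macrophages, 6 of which are members, 26 were lower, 19 higher and 16 not called in FosKO at 2 h, with a median of -0.14 against 0.00 over all tested genes. The chemokine receptor Ccr2 changed by -0.67, P2ry1 by -0.82 and P2ry2 by 1.18. Of 12 tested genes of the endocannabinoid system, 5 were lower, among them Cnr2, Dagla, which makes the ligand 2-arachidonoylglycerol (-1.28), and Napepld, which makes N-acylethanolamines (-0.96). Naaa, an enzyme that degrades N-acylethanolamines, was the 1 that was higher (0.30). Of 17 clock genes 11 were lower and 4 higher, with a median of -0.43, and Bhlhe41, Per2 and Dbp changed by -1.74, -1.02 and -0.82 beside the member Per1. The 26 tested genes of FoxO and quiescence, 3 of which are members, had 8 lower and 10 higher, the 44 myeloid transcription factors, also with 3 members, 17 in each direction, the 11 regulators of G protein signalling 6 lower and 3 higher, the 31 genes of TGF-beta and BMP signalling 8 and 13, and the 32 of phosphoinositide signalling 13 in each. These counts compare with 29.5% lower and 32.6% higher among all tested genes.

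Of the 75 members, 7 had no coding annotation, and the host locus of a microRNA was among them. F630028O10Rik, annotated as antisense on the plus strand of chromosome X from 96239926 to 96243636, contains the hairpin of Mir223, a microRNA of myeloid cells. Its mature forms are shown because the locus is their host, with the seed (bases 2 to 8) in capitals, as RefSeq gives them for chrX:96242884-96242905 and chrX:96242842-96242864.
mmu-miR-223-3p: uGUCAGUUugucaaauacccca
mmu-miR-223-5p: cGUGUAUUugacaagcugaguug
The host locus F630028O10Rik had 9.33, 9.05 and 9.25 in LysM-Cre before LPS, followed by 8.39, 8.09 and 8.14 after 0.5 h, by 8.26, 8.23 and 8.08 after 1 h, and by 7.63, 7.56 and 7.63 after 2 h. In FosKO it was 8.96, 8.63 and 8.60, then 8.22, 7.91 and 7.99, then 8.36, 8.34 and 8.24, and at 2 h 7.78, 7.59 and 7.89. All libraries at 0.5 h lay below those at 0 h in both genotypes, those at 1 h overlapped the 0.5 h libraries in LysM-Cre and lay above them in FosKO, and those at 2 h were lowest. The change in FosKO was -0.69 at 0.5 h (limma adjusted p = 0.000131) and -0.97 at 2 h (6.64e-08), and mature miR-223 was not measured in these libraries. Of the other loci, Gm38248, Gm15513, 2010008C14Rik and ENSMUSG00000113184 changed by -1.60, -1.21, -1.30 and -1.19 at 2 h in FosKO. Gm38248 lies within Zranb3 and Gm15513 within Zfyve28 on the same strand, so their values are uncertain.

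The 4 genes that did not pass at 2 h in FosKO were Gm42674, Gm4294, Gm11709 and Gm26669, with changes of 1.30, -0.00, -0.13 and -0.36 (limma adjusted p = 0.241, 0.998, 0.888 and 0.737). Their libraries of a group differed widely, with an SD of up to 2.23 against at most 0.387 for the other 71 genes. Gm42674 had the largest fall of all in LysM-Cre, from 8.12, 7.87 and 7.87 to 4.00, 3.94 and 3.91. In FosKO, however, it was 3.96, 7.06 and 4.68 before LPS and 6.94, 6.10 and 6.57 at 2 h, so that a FosKO library before LPS already lay at the level LysM-Cre reached with LPS. The locus, at chr3:90601904-90605885 on the plus strand, overlaps S100a4 over 53.1% and S100a3 over 20.1% of its length on the same strand, and how reads were divided between them is not known from the table. Gm26669 lies wholly within Zfp36l1 on the opposite strand, and Gm4294 is a processed pseudogene. Gm11709 is annotated as the protein-coding gene Cd300ld2. In Gm26669 the 5 libraries low in 18S RNA held the 5 lowest values at 0.5 and 1 h, from 6.12 to 6.60, against 8.67 to 9.39 in the other 7, and their part in the result was not tested.

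**Figure D5:**
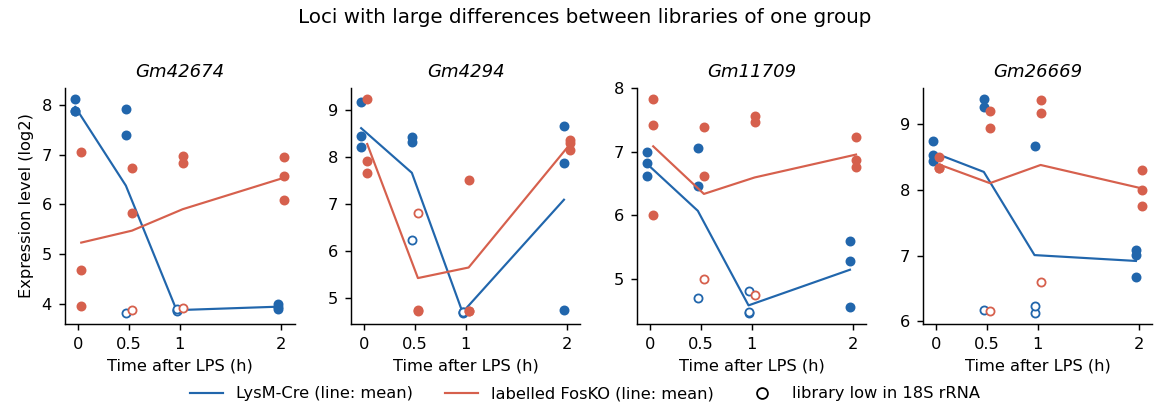
Expression level (log2) of Gm42674, Gm4294, Gm11709 and Gm26669 on the y axis against time after LPS in hours, 1 point per library (3 per group), lines through the group means, LysM-Cre in blue, libraries labelled FosKO in red, and open symbols for the 5 libraries low in 18S RNA. Libraries of a group differ by up to several log2 units, and in Gm26669 the open symbols are the lowest at 0.5 and 1 h.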

How the data were processed

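RNA was sequenced from BMDMs of both genotypes at 4 times, with 24 libraries. Per the study's methods and the submitters' processing notes, the authors aligned single-end reads with STAR 2.5.2a, estimated gene counts with RSEM 1.2.31 against GRCm38 (mm10) and used DESeq2 (1.16.1 in the notes). The authors deposited normalized log2 values, 1 per gene and library. The study's methods describe strand-specific reads and give a typical yield. The depth of each library is unknown from the deposited values, no counting interval was computed, and errors reflect replicate libraries only.

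The genes, role groups and lists were chosen with earlier results of these data known. Genes were tested where 3 or more libraries had a linear value (antilog) of 5 or above. The 24 libraries entered one limma fit (3.58.1, R 4.3.3) of 8 group means (16 residual degrees of freedom, empirical Bayes with a trend), tested on simulated data. P-values were adjusted by Benjamini-Hochberg over 13901 genes and called under 0.05. Comparisons with LysM-Cre at 0 or 2 h were not tested, since those libraries chose the genes. Genotype tests at 0.5 and 1 h used other libraries, but the choice favours genes with a higher LysM-Cre level before LPS. Named genes were Cnr2, the 15 largest falls, the 5 on either side of the threshold, list members, the 4 largest genotype differences each way at 0.5 and 1 h, the 5 extremes of the ratio and of the share at 1 h, genes not called at 2 h and the 5 most like Cnr2. Others were named after their values were seen, and some genes within the rule are not reported here. Positions, transcripts and overlaps are from GENCODE M21 (GRCm38), in which all 75 identifiers were found.

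Alternatives were quantile normalisation, TMM factors, log2 of the linear value plus 1, no filter on low values, only the groups compared, the replicate number as a block, no trend, a term for libraries low in 18S RNA, each library left out, and other thresholds of the rule. Chosen after seeing the data were the use of high 18S libraries alone, a block within genotype, leaving out the 4 variable loci, and the step comparisons.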

Additional observations from a re-analysis of the deposited data

Results flagged for a closer look

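The step from 0.5 h to 1 h of LPS differed between libraries labelled FosKO and LysM-Cre, by a test of the difference itself, for 4 of the 75 genes, 3 of which are given here. The difference was 0.44 for Dusp6, 0.38 for Jun and 0.22 for Arl4c, in each case a smaller decline in FosKO. The test was added after the data were seen, and only Jun kept the call in the 19 libraries high in 18S RNA. A smaller decline in FosKO is favoured by the choice of genes for their fall in LysM-Cre. Groups of 3 libraries are too small for a search for single libraries that stand apart.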

How the results depend on the processing

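The counts of genes lower in FosKO at each time, lower in LysM-Cre at 1 h than at 0.5 h, or different between genotypes in either direction stayed within 1.5 times the reported value under every alternative run. Genes higher in FosKO than in LysM-Cre at 0.5 h numbered 10, but 6 with quantile normalisation, and those higher in FosKO than before LPS numbered 1 to 3 at both 0.5 h and 1 h. Genes lower in FosKO numbered 7 to 13 at 0.5 h, 50 to 60 at 1 h and 71 to 72 at 2 h, and with a library left out 9 to 12, 52 to 59 and 71. Genes that differed for the step numbered 1 in the high 18S libraries alone, and 2 to 4 with a library left out, the lowest without LysM-Cre replicate 2 at 1 h. The rule chose 134 genes with the looser and 35 with the stricter threshold tried. Of 190 calls of named genes, 152 were kept under all alternatives run and none reversed. Same-numbered libraries of a genotype had residual correlations from -0.248 to 0.706, with a median of 0.0631. Libraries of a genotype with different numbers had a median of -0.0313. The labels do not state a pairing, so the numbers were not taken as pairs. With the replicate block 10, 60 and 71 genes were lower in FosKO at 0.5, 1 and 2 h, 66 differed between 0.5 and 1 h in LysM-Cre, 47 and 38 differed between genotypes at 0.5 and 1 h and 4 for the step. With the block within each genotype the first 3 counts were 12, 60 and 71. In 22 of 24 libraries the mean correlation within a genotype was highest with the own number, a hint from the data and not from the design. If the numbers mark a shared source, LysM-Cre libraries at 0.5 and 1 h are not independent of those that chose the genes. The depth of each library is unknown, and the 4 variable loci had the largest spread between libraries.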
